A study of Mus musculus with 2 samples.

Results

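Cxcl1, Cxcl2 and Cxcl3 encode 3 closely related secreted chemokines. They were picked by gene symbol, and each symbol occurs once among the 31053 genes counted in mouse bone marrow derived macrophage cultures. Their level in treated against untreated cells was known when they were picked. That contrast is therefore given as a description only, with no test, and supports nothing. The cultures came from marrow of wild-type 129Sv mice, and the labels give no sex, age, number of animals or number of dishes. Marrow cells were grown with 10% serum and M-CSF at 50 ng/ml, the growth factor that turns marrow cells into macrophages, so both groups carry it. On day 7 the THP group received 1 µg/ml of truncated Tamm-Horsfall protein (THP), or uromodulin, the main protein of normal urine, in a form that does not polymerize, and the vehicle group received 5% dextrose, each for 18 h. Each group is 1 droplet library in which transcripts were counted by unique molecular identifiers (UMIs), so a difference between groups cannot be told apart from a difference between cultures or library preparations. All intervals are 95% and cover counting error only.

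The 3 proteins belong to the CXC chemokines that carry an ELR (glutamate-leucine-arginine) motif before their paired cysteines. They bind Cxcr2, a G protein-coupled receptor on neutrophils, and draw these cells out of the blood into tissue. Resident and recruited macrophages make them after signals through Toll-like receptors, interleukin 1 or tumour necrosis factor, which act through NF-kB on the promoter, and AU-rich elements in the 3′ untranslated region keep the transcripts short-lived.

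The genes lie in a cluster of CXC chemokine genes on mouse chromosome 5, and their regulatory sequence is shown because both the promoter and the transcript end carry shared elements. In GENCODE M21 (build GRCm38, the same assembly as the mm10 named by the submitters), Cxcl3 (ENSMUSG00000029379) spans 90786103 to 90789600, Cxcl1 (ENSMUSG00000029380) 90891241 to 90893115 and Cxcl2 (ENSMUSG00000058427) 90903871 to 90905938. All 3 are on the plus strand with 4 exons, and together they span 119.836 kb. The windows below come from the RefSeq promoter table (build GRCm38.p6, plus strand, reference strain sequence and not that of 129Sv) and stop at the last base before the earlier of the RefSeq and GENCODE starts. Capitals mark the 2 runs of at least 8 bases that all 3 windows share on the same strand. They are GGGAATTTCCC, which holds a form of the kappa-B site bound by NF-kB, and ATAAAAGG, a TATA-box form that helps to place the start of transcription.
Cxcl1, chr5:90890995-90891240: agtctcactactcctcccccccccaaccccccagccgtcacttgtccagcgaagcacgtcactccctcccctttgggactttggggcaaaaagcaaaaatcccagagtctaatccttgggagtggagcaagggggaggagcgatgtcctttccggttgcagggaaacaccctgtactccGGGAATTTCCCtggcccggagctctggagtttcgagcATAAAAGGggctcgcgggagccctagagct
Cxcl2, chr5:90903649-90903870: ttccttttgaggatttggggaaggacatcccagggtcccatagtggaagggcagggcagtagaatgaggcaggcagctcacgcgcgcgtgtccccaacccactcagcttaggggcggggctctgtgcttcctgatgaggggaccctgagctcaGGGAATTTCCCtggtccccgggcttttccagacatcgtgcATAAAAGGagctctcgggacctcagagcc
Cxcl3, chr5:90785851-90786100: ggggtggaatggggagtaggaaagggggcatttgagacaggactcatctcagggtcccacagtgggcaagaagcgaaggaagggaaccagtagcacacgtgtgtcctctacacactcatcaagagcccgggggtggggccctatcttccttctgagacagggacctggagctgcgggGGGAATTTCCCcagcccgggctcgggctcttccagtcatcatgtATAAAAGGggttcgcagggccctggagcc
The kappa-B run begins 67, 69 and 75 bases before the GENCODE start of Cxcl1, Cxcl2 and Cxcl3, and the TATA run begins 30, 29 and 31 bases before it. The runs do not overlap, and both were found from these sequences themselves. Counted on both strands over the 250 bases before each of 32851 RefSeq starts of 27025 genes, GGGAATTTCCC occurred in 14 windows (0.0426%) and ATAAAAGG in 507 (1.54%). Both occurred together in 3 windows, those of Cxcl1, Cxcl2 and Cxcl3. A match describes letters in this window and is not a measured binding site.

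The 3′ untranslated regions were dense in the pentamer ATTTA, the core of AU-rich elements, which decay factors such as tristetraprolin (Zfp36) bind. The 30-base stretch with most pentamers is shown for each gene from the GENCODE M21 transcript, with pentamers in capitals.
Cxcl1: gagggtcctATTTATTTAtgtATTTATTTA
Cxcl2: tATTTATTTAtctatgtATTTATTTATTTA
Cxcl3: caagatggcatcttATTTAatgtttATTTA
Cxcl2 had 11 pentamers in 734 bases (14.99 per 1000 bases), Cxcl1 had 7 in 592 (11.8 per 1000) and Cxcl3 had 5 in 645 (7.75 per 1000). Of 17385 mouse genes with a 3′ untranslated region of at least 200 bases, 0.109%, 0.328% and 1.76% were as dense as Cxcl2, Cxcl1 and Cxcl3. The longer nonamer TTATTTATT occurred 4, 2 and 1 times. The coding parts were 89.8% identical between Cxcl2 and Cxcl3, 75.6% between Cxcl1 and Cxcl2 and 72.6% between Cxcl1 and Cxcl3. The 3′ untranslated regions were 53.5%, 49.4% and 49.8% identical. Cxcl2 and Cxcl3 share a run of 110 identical bases, against 23 for either with Cxcl1, so reads from that run could have been split between the genes or dropped, and the lower counts of Cxcl3 are uncertain in that respect.

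The THP library held 12123 cells after filtering (224825484 UMIs, median 16113 per cell) and the vehicle library 10978 (207662132 UMIs, median 17223). Macrophage genes were present in both: Adgre1 (F4/80) was at 353 and 235 counts per 1000000 UMIs (CPM), and Csf1r, the M-CSF receptor, at 244 and 227 CPM. Cells were sorted in silico by 11 gates of 6 marker genes each, none of them a chemokine studied here, and a cell passed a gate with at least 4 of the 6 markers at 2 or more UMIs. The macrophage gate held 2975 THP cells (24.5%) and 1822 vehicle cells (16.6%). Another 1019 and 660 cells had 3 of its 6 markers, just short of the gate, and 856 and 512 had exactly 4. Cells passing no gate made up 35.7% and 28.1%, and they too held Adgre1 (323 and 251 CPM) and Csf1r (257 and 280 CPM), with C1qa at 16.8 and 13.3 CPM. In these no-gate cells the 6 mature neutrophil markers summed to 3307 and 3287 CPM, against 478 and 487 CPM in the macrophage gate. Cxcr2 was at 11.3 and 23.3 CPM in them, so they are not read as 1 cell type. The neutrophil gates together held 12.4% of THP and 16.9% of vehicle cells, the monocyte gate 4.93% and 7.74%, and the myeloid progenitor gate 4.51% and 4.82%, the last with overlapping intervals. A level over all cells joins level per cell with share of cells. The libraries had 42 cell barcodes in common, and 39 THP and 41 vehicle cells with these barcodes were kept. They held 2.98%, 1.39% and 1.52% of the vehicle UMIs of Cxcl1, Cxcl2 and Cxcl3 at 0.373% of vehicle cells.

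All 3 chemokine transcripts were higher in the THP library, Cxcl1 by the largest factor and Cxcl2 at the highest level. Cxcl1, first known as KC, had 54.3 CPM (53.4 to 55.3, 12213 UMIs) after THP and 5.50 CPM (5.18 to 5.83, 1142 UMIs) after vehicle, a ratio of 9.88 (9.30 to 10.5). Cxcl2, also known as MIP-2, was at 619 CPM (616 to 622, 139198 UMIs) against 119 CPM (118 to 121, 24742 UMIs), a ratio of 5.20 (5.13 to 5.27). Cxcl3 was at 15.3 CPM (14.8 to 15.8, 3443 UMIs) against 4.11 CPM (3.84 to 4.39, 853 UMIs), a ratio of 3.73 (3.46 to 4.02). The counting intervals of the libraries lie apart for each gene. As log2 ratios of CPM + 1, THP over vehicle, these differences are 3.09, 2.37 and 1.68, and they are 3.12, 2.38 and 1.69 without the shared barcodes. They rank 3, 9 and 28 among the 8012 genes with at least 10 CPM in 1 library, whose median was -0.18. Of those genes 0.911% were at least 2-fold higher in THP and 2.97% at least 2-fold lower, which is the background to the 3 of 3 higher here, and nothing is read from that count because the genes were picked on it. Cxcl2 had the most UMIs in both libraries, followed by Cxcl1 and Cxcl3. Per kb of transcript the order was the same, at 558 and 107 CPM, 57.0 and 5.77, and 15.1 and 4.04. A UMI stands for 1 molecule whatever its length, so the plain CPM are the measure of level used here.

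Macrophage-gated cells carried the largest named portion of these transcripts, with 50.9%, 42.5% and 37.9% of all Cxcl1, Cxcl2 and Cxcl3 UMIs in the THP library. In these cells Cxcl1 was at 77.4 CPM (75.5 to 79.4) with THP and 9.25 CPM (8.41 to 10.1) with vehicle, a log2 ratio of 2.94. For Cxcl2 the levels were 736 CPM (730 to 742) and 169 CPM (166 to 173), and the log2 ratio 2.11. For Cxcl3 they were 16.3 CPM (15.4 to 17.2) and 3.47 CPM (2.96 to 4.03), and the log2 ratio 1.95. The macrophage gate thus showed the same order of levels as the whole libraries, with Cxcl1 again the gene with the largest ratio. Of 7886 genes tested in this gate, 0.964% were at least 2-fold higher and 2.52% lower. The cells of no gate, with 30.8%, 35.7% and 42.6% of the THP UMIs of the 3 genes, had 59.4, 785 and 23.1 CPM with THP against 7.75, 184 and 6.39 CPM with vehicle. In them too all 3 were at least 2-fold higher, against 0.882% of 7825 genes, with 2.9% lower. In the macrophage gate the median count per cell over the 6 neutrophil markers was 7 UMIs with THP and 8 with vehicle, beside 55 and 60 over its own 6 markers.

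**Figure D1:**
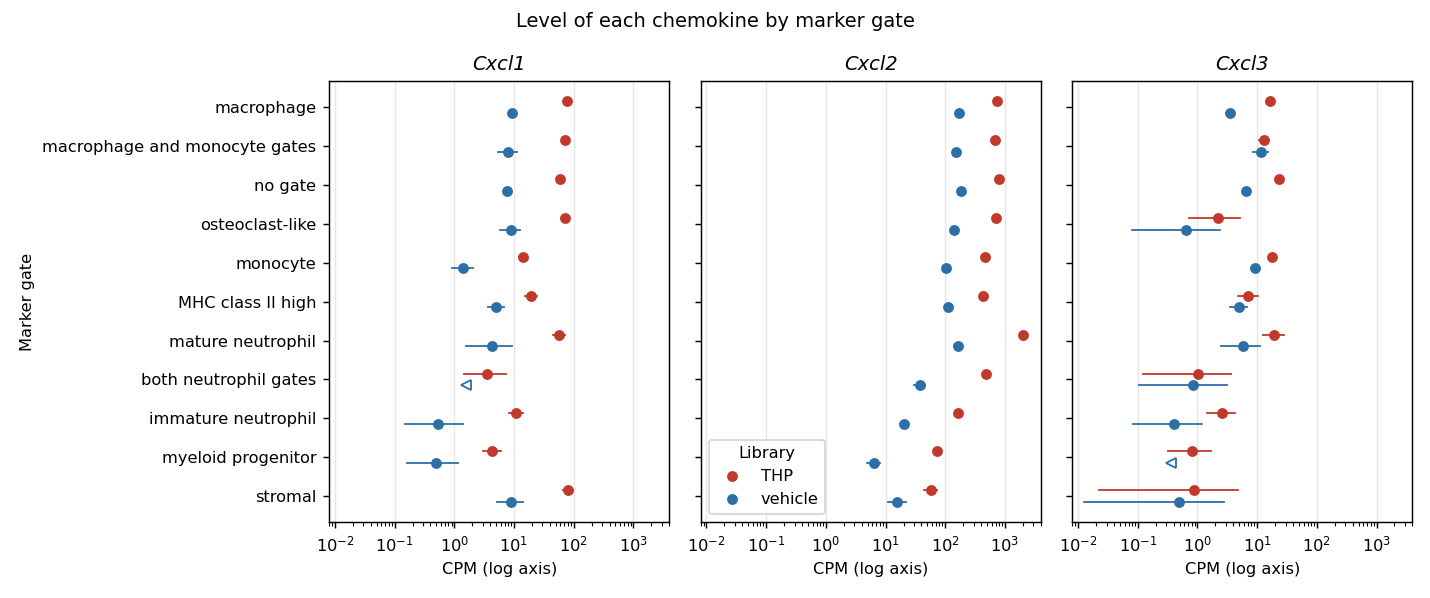
Level of Cxcl1, Cxcl2 and Cxcl3 in CPM (log axis) in each marker gate, THP library in red and vehicle library in blue; lines are exact Poisson intervals and open triangles mark the upper limit where no UMI was counted. Cxcl2 in mature neutrophil-gated cells of the THP library, at 2028 CPM, is the highest point, and Cxcl3 in the monocyte, MHC class II high and double macrophage and monocyte gates has the closest red and blue points among gates with over 20 UMIs in each library. A single vehicle cell held 24 of the 40 Cxcl3 UMIs in the MHC class II high gate and 29 of 47 in the double gate.

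Among the gates drawn, Cxcl1 levels in THP cells fell into an upper and a lower group. Stromal-gated cells had 81.0 CPM (65.4 to 99.3), macrophage-gated cells 77.4, cells passing both the macrophage and monocyte gates 72.4 (66.3 to 78.8) and osteoclast-like cells 72.2 (61.5 to 84.3), and these neighbours overlap in their intervals. The no-gate cells at 59.4 CPM (57.5 to 61.3) and mature neutrophils at 57.7 CPM (45.1 to 72.7) came next and also overlap. Without thinning, however, Cxcl1 was found in 20.6% of these no-gate cells and in 2.79% of these mature neutrophils. In the mature neutrophils 1 cell held 31 of the 72 UMIs, so their place in this order leans on few cells. MHC class II high cells had 19.6 CPM (15.4 to 24.5), monocytes 14.2 (12.1 to 16.6) and immature neutrophils 10.9 (8.37 to 13.9). Myeloid progenitors, with 4.36 CPM (3.08 to 5.98), and cells passing both neutrophil gates, with 3.57 CPM (1.43 to 7.35), were lowest. So monocyte-gated cells held a much lower level of Cxcl1 than macrophage-gated cells, although their Cxcl2 was at 459 CPM (447 to 472) and their Cxcl3 at 18.0 CPM (15.6 to 20.7).

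Cxcl3 followed another order across gates than Cxcl1. Among the gates drawn, in vehicle cells it was highest in cells passing both the macrophage and monocyte gates, at 11.6 CPM (8.50 to 15.4), and in monocyte-gated cells, at 9.13 CPM (7.78 to 10.6). In the double gate 1 cell held 29 of the 47 vehicle UMIs, so its rank rests largely on that cell. Vehicle macrophage-gated cells had 3.47 CPM. With THP the monocyte and macrophage gates were close, at 18.0 and 16.3 CPM, so the ratio was 1.97 (1.60 to 2.44) in the monocyte gate and 4.69 (3.99 to 5.54) in the macrophage gate. In the MHC class II high gate, which takes in cells with antigen-presenting genes, Cxcl3 was at 7.13 CPM (4.70 to 10.4) against 4.95 CPM (3.53 to 6.73), a ratio of 1.44 whose interval (0.851 to 2.41) includes no difference. In the double macrophage and monocyte gate Cxcl3 was at 13.2 CPM (10.7 to 16.1) against 11.6 CPM. The ratio of 1.14 (0.795 to 1.65) leans on the vehicle cell with 29 UMIs. The difference between gates in the size of the ratio was not tested, as each gate has 1 library per group. In the monocyte gate 2 of the 3 genes, Cxcl1 and Cxcl2, were at least 2-fold higher, against 1.04% of 7764 genes, with 2.38% lower. The same 2 genes were so in the MHC class II high gate, against 1.23% of 7882 genes, with 6.37% lower.

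With THP, mature neutrophils held the highest level of Cxcl2 per UMI counted among the gates drawn. In mature neutrophil-gated cells (358 THP and 432 vehicle cells) Cxcl2 was at 2028 CPM (1949 to 2108) with THP and 162 CPM (142 to 184) with vehicle, a ratio of 12.5 (10.9 to 14.4). With vehicle they did not stand highest, beside 169 CPM (166 to 173) in macrophage-gated and 184 CPM (181 to 188) in no-gate cells. In the mature neutrophil gate Cxcl1 was at 57.7 CPM (45.1 to 72.7) against 4.26 CPM (1.56 to 9.28), and Cxcl3 at 19.2 CPM (12.3 to 28.6) against 5.68 CPM (2.45 to 11.2). These last values rest on 72 and 6 UMIs of Cxcl1 and 24 and 8 of Cxcl3. Of the 72 Cxcl1 UMIs with THP, 31 were in 1 cell. All 3 were at least 2-fold higher, in a gate where 2.8% of 7174 genes were higher and 15.4% lower by that rule. These cells were shallow, with medians of 2286.5 and 2051.5 UMIs. Without thinning, the mean was 19.9 Cxcl2 UMIs per THP macrophage-gated cell and 7.07 per THP cell of the mature neutrophil gate. The 6 macrophage markers summed to 362 CPM with THP and 237 CPM with vehicle in this gate, with none of the 6 at 0 in either library and a median of 0 UMIs per cell, while they summed to 2694 CPM in THP macrophage-gated cells. The part of these markers in the result was not tested.

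With every cell thinned to 2000 UMIs, leaving out 110 THP and 198 vehicle cells below that depth, 62.1% (55.7 to 68.2) of mature neutrophil-gated THP cells and 10.3% (6.68 to 14.9) of vehicle ones had a Cxcl2 UMI. They carried a mean of 4.79 and 0.269 UMIs per cell. Macrophage-gated cells at the same depth had Cxcl2 in 55.8% and 20.7% of cells, with means of 1.43 and 0.327 UMIs. Unthinned, 68.4% and 13.7% of mature neutrophils had a Cxcl2 UMI. Cells passing both neutrophil gates had 489 CPM (458 to 521) against 38.0 CPM (30.5 to 46.7) of Cxcl2, in a gate where 2.58% of 6898 genes were at least 2-fold higher and 9.41% lower. Their Cxcl1 had 7 UMIs with THP and 0 with vehicle, at least 2.79-fold higher against a floor of 3 counts for the vehicle library, and their Cxcl3 was at 2 UMIs in each. Immature neutrophil-gated cells, which hold granule genes such as Ngp and Camp, had 166 CPM (155 to 176) against 20.7 CPM (17.6 to 24.3) of Cxcl2, in a gate where 1.79% of 7271 genes were at least 2-fold higher and 4.92% lower. Among the neutrophil gates, the Cxcl2 level in both libraries was highest in the mature gate, lower in the double gate and lowest in the immature gate.

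The receptor of these chemokines was read in the same neutrophils. Cxcr2 was at 503 CPM (465 to 544) in mature neutrophil-gated THP cells and 710 CPM (666 to 755) in vehicle cells, at 295 and 381 CPM in cells of both neutrophil gates, and at 73.3 and 125 CPM in immature ones. Macrophage-gated cells had 0.934 and 1.25 CPM. Cxcr2 was lower in the THP library in each of the 3 neutrophil gates, where the median log2 ratio of all genes tested was also below 0, at -0.31 in the mature, -0.25 in the double and -0.19 in the immature gate. Over all cells it was at 13.03 and 24.3 CPM, a log2 ratio of -0.85 that misses the 2-fold rule, beside a share of neutrophil-gated cells that also differed between the libraries (12.4% with THP and 16.9% with vehicle).

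Stromal-gated cells, which hold collagen genes and number 56 and 52, had more Cxcl1 than Cxcl2 UMIs in the THP library. Their Cxcl1 was at 81.0 CPM (65.4 to 99.3, 93 UMIs) against 8.88 CPM (5.26 to 14.0, 18 UMIs). Their Cxcl2 was at 57.5 CPM (44.5 to 73.2, 66 UMIs) against 15.8 CPM (10.8 to 22.3, 32 UMIs), and Cxcl3 had 1 UMI in each library. A single cell held 51 of the 66 Cxcl2 UMIs with THP, and 1 cell held 14 of the 32 with vehicle. The Cxcl2 levels and the shares of the 3 genes that follow lean on these cells. Cxcl1 made up 58.1% (50.1 to 65.9) of the UMIs of the 3 genes in THP stromal-gated cells and 35.3% (22.4 to 49.9) in vehicle ones, where Cxcl2 made up 62.7%. In macrophage-gated cells it made up 9.33% (9.11 to 9.55) and 5.08% (4.63 to 5.56). The stromal share of Cxcl1 lies above that of every other gate drawn in both libraries. The stromal-gated cells of the 2 libraries were not alike in other respects. The collagen gene Col1a1 was at 826 CPM with THP and 5959 CPM with vehicle. The median count over the 6 stromal markers was 184 and 557 UMIs per cell, at a median depth of 19178 and 37018 UMIs. The part of these differences in the contrast was not tested.

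The make-up of the trio, as each gene's share of their joint UMIs with no correction for length, also differed between monocyte-gated and macrophage-gated cells. Over all cells it was 7.89% Cxcl1, 89.9% Cxcl2 and 2.22% Cxcl3 with THP and 4.27%, 92.5% and 3.19% with vehicle, so the Cxcl1 share was larger and the Cxcl3 share smaller in the THP library. In monocyte-gated cells Cxcl3 made up 3.67% (3.19 to 4.19) with THP and 7.94% (6.81 to 9.20) with vehicle, while in macrophage-gated cells it was 1.96% and 1.90%. With vehicle it was 6.78% (5.03 to 8.92) in the double macrophage and monocyte gate, which overlaps the monocyte share. In the MHC class II high gate it was 4.14% (2.97 to 5.59) with vehicle. Both of these lean on the single cells given above. Osteoclast-like cells, gated on resorption genes such as Acp5 and Ctsk, had little Cxcl3, at 0.291% (0.0945 to 0.677) of 1719 UMIs with THP. Their Cxcl1 share of 9.37% was close to that of macrophage-gated cells. In cells of both neutrophil gates Cxcl2 made up 99.1% (98.2 to 99.6) of 968 UMIs with THP.

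**Figure D2:**
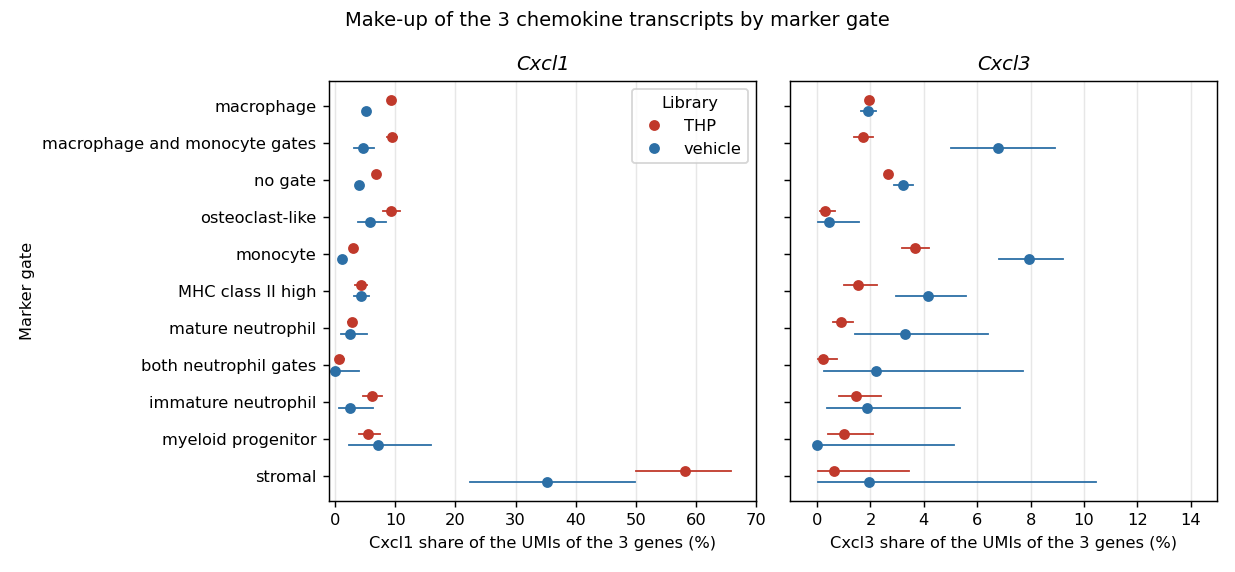
Share of Cxcl1 (left) and Cxcl3 (right) in the joint UMIs of the 3 genes, in percent, by marker gate, with the THP library in red, the vehicle library in blue and exact binomial intervals as lines. Stromal-gated cells stand to the right for Cxcl1, at 58.1% and 35.3%. For Cxcl3, vehicle monocyte-gated cells stand to the right at 7.94%, beside vehicle cells of the double macrophage and monocyte gate at 6.78%.

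Small gates gave few UMIs. B-lineage-gated cells (44 and 26) held 22 and 0 UMIs of Cxcl2, mast or basophil-gated cells (37 and 17) held 16 and 2, and T or NK-gated cells (10 and 6) held 1 and 13, a gate in which Cxcl2 had more UMIs with vehicle. No ratio is read from these.

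The share of cells with a UMI was compared after thinning every cell to 5000 UMIs, which left out 1958 THP and 1966 vehicle cells. Cxcl2 was found in 56.5% (55.5 to 57.5) of the 10165 cells left with THP and 20.9% (20.02 to 21.7) of the 9012 left with vehicle, Cxcl1 in 12.3% (11.7 to 12.98) and 1.69% (1.43 to 1.97), and Cxcl3 in 3.52% (3.17 to 3.90) and 1.19% (0.974 to 1.43). Without thinning the shares were 65.8% and 30.7%, 22.7% and 4.87%, and 7.49% and 2.57%. In macrophage-gated cells the thinned shares were 76.2% (74.6 to 77.7) and 35.4% (33.2 to 37.6) for Cxcl2, 20.8% (19.4 to 22.4) and 3.11% (2.36 to 4.02) for Cxcl1, and 4.67% (3.93 to 5.49) and 0.833% (0.467 to 1.37) for Cxcl3. Most macrophages thus had a Cxcl2 UMI with THP, and a minority had a Cxcl1 or Cxcl3 UMI.

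Free RNA can give UMIs in cells that do not express a gene, and myeloid progenitors (gated on granule genes such as Mpo and Elane, with median 15366 and 18617 UMIs) were taken as the type expected to lack these chemokines. At 5000 UMIs, 11.2% (8.67 to 14.2) of 535 progenitors had a Cxcl2 UMI with THP and 1.15% (0.424 to 2.49) of 521 with vehicle. Cxcl1 was found in 0.561% and in 0 of 521, which allows a share of up to 0.576% (3 counts of 521), and Cxcl3 in 0.187% and in 0 of 521. Macrophage-gated cells, at a median of 23098 and 23715.5 UMIs before thinning, had higher shares than these for each of the 3 genes in both libraries. For Cxcl3 with vehicle, their 0.833% (0.467 to 1.37) overlaps what 0 of 521 allows, so it is not set apart from the progenitors. The Cxcl2 shares of immature neutrophil-gated cells, 15.7% (12.6 to 19.2) of 498 with THP and 3.24% of 648 with vehicle, overlap those of progenitors in their intervals, although their Cxcl2 levels of 166 and 20.7 CPM were above the progenitor levels of 73.5 and 6.43 CPM. The stromal Cxcl2 share of 5.36% (1.12 to 14.9) of 56 cells with THP overlaps that of progenitors and is not set apart from background. Yet 1 of these stromal cells held 51 Cxcl2 UMIs before thinning. The stromal share of 5.77% (1.21 to 15.9) of 52 cells with vehicle lies above that of progenitors with overlapping intervals, at levels of 15.8 CPM (10.8 to 22.3) against 6.43 CPM (4.96 to 8.19). Before thinning, 1 progenitor held 120 of the 641 THP Cxcl2 UMIs of its gate and 1 held 39 of the 65 vehicle ones. In the progenitor gate 1.02% of 7780 genes were at least 2-fold higher and 2.98% lower. The Cxcl2 level in progenitors was thus itself higher with THP, and its part in the ratios of other gates was not tested.

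**Figure D3:**
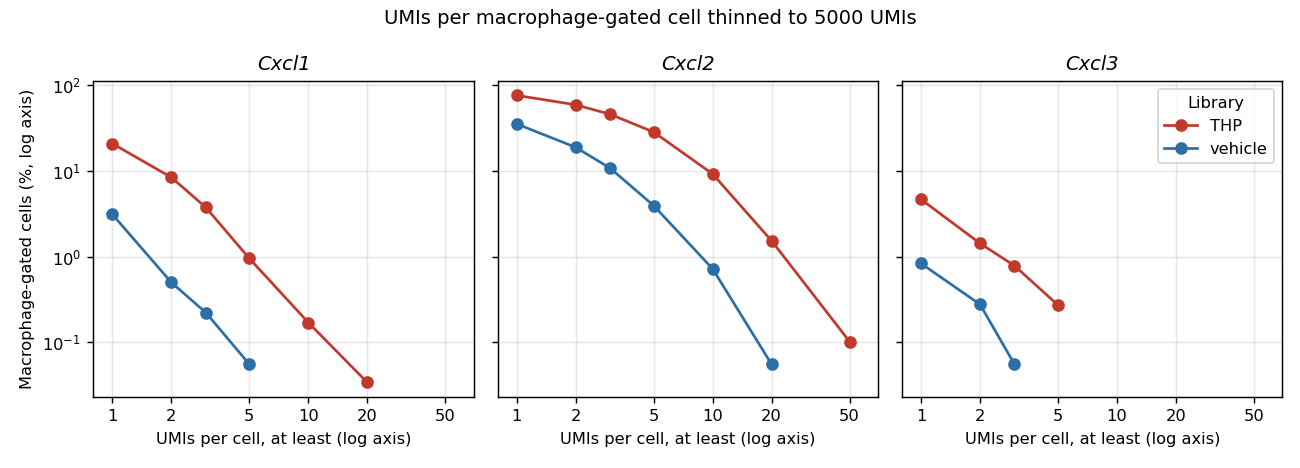
Percent of macrophage-gated cells (log axis) with at least the given number of UMIs (log axis) of each gene, after thinning to 5000 UMIs; THP library in red, vehicle library in blue, and points at 0 not drawn. At 5 or more UMIs of Cxcl2 the curves stand at 28.5% and 3.94%.

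Within macrophage-gated cells the counts were spread unevenly. At 5000 UMIs per cell, 28.5% of cells with THP and 3.94% with vehicle had 5 or more Cxcl2 UMIs, and 1.53% and 0.0555% had 20 or more. Cxcl1 reached 5 UMIs in 0.954% and 0.0555% of cells. The top 10% of THP cells held 40.6% of Cxcl2 and 71.6% of Cxcl1 UMIs, and the top 1% held 9.14% of Cxcl2, 19.5% of Cxcl1 and 48.7% of Cxcl3 UMIs. In vehicle cells the top 10% held 59.0% of Cxcl2 UMIs. The variance over cells was 6.99 times the mean for Cxcl2, 2.93 times for Cxcl1 and 2.71 times for Cxcl3 in THP cells. Without thinning, the highest cells for Cxcl1 (207 UMIs) and Cxcl2 (1185 UMIs) were macrophage-gated, each in a cell with 61028 UMIs in all, and the highest for Cxcl3 (118 UMIs) was a no-gate cell with 17762 UMIs that alone held 3.43% of the library's Cxcl3. The top 10 cells held 6.08%, 2.67% and 15.4% of the THP UMIs of Cxcl1, Cxcl2 and Cxcl3. No doublet caller was run, and cells of high depth can be doublets.

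Cxcl1 was found mostly in cells that also had Cxcl2. Of 2936 THP macrophage-gated cells at 5000 UMIs, 54.1% had Cxcl2 alone, 17.9% Cxcl1 with Cxcl2, 1.77% Cxcl1 alone, 3.07% Cxcl2 with Cxcl3, 1.16% all 3 genes and 21.6% none. Of 1801 vehicle cells, 32.8% had Cxcl2 alone, 2.05% Cxcl1 with Cxcl2 and 63.3% none. Cxcl2 was found in 91.3% (88.8 to 93.4) of the 612 THP cells with Cxcl1 and in 72.2% (70.3 to 74.0) of those without. In vehicle cells these shares were 67.9% (54.0 to 79.7) of 56 cells and 34.3% (32.1 to 36.6). Read the other way, Cxcl1 was found in 25.0% (23.2 to 26.8) of THP cells with Cxcl2 and 7.58% (5.73 to 9.80) of those without. Of the 137 THP cells with Cxcl3, 90.5% (84.3 to 94.9) had Cxcl2 against 75.5% of the rest, and 25.5% (18.5 to 33.7) had Cxcl1 against 20.6% (19.1 to 22.2), the latter with overlapping intervals. Cells of 1 library share free RNA and are not replicates, so these shares are a description.

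The share with Cxcl1 was higher at each step of the Cxcl2 count of the cell. In THP macrophage-gated cells with 0, 1 to 4, 5 to 19 and 20 or more Cxcl2 UMIs (699, 1401, 791 and 45 cells), Cxcl1 was found in 7.58%, 17.5%, 36.2% and 62.2%. Cxcl3 was found in 1.86%, 4.57%, 6.83% and 13.3% of the same cells. In vehicle cells with 0, 1 to 4 and 5 to 19 Cxcl2 UMIs (1164, 566 and 70 cells), Cxcl1 was found in 1.55%, 4.95% and 14.3%, and Cxcl3 in 0.515%, 1.59% and 0 of 70, which allows up to 4.29% (3 counts of 70). The share with Cxcl1 was higher in THP cells in each of the 3 bins that both libraries fill, and Cxcl2 counts within the 1 to 4 and 5 to 19 bins were not matched.

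**Figure D4:**
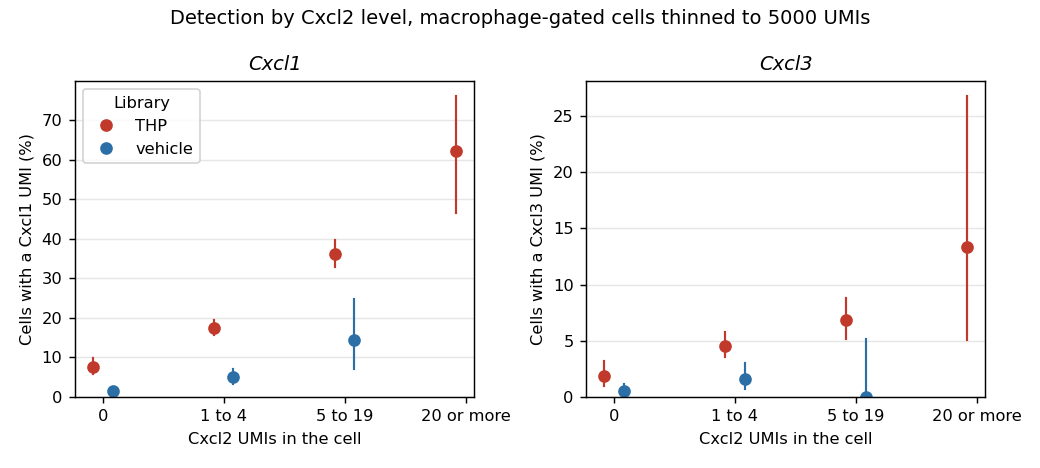
Percent of macrophage-gated cells with a UMI of Cxcl1 (left) or Cxcl3 (right) by the number of Cxcl2 UMIs in the cell, all thinned to 5000 UMIs, with exact binomial intervals; THP in red, vehicle in blue, and bins under 20 cells not drawn. The Cxcl1 share goes from 7.58% to 62.2% in THP cells, and lies above that of vehicle cells in each bin drawn for both libraries.

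As correlations across the thinned macrophage-gated cells (n = 2936 THP and 1801 vehicle), Cxcl1 and Cxcl2 had Pearson's r of 0.34 (on log1p counts) and Spearman's rho of 0.30 with THP, and 0.20 and 0.14 with vehicle. Cxcl2 and Cxcl3 had r of 0.10 and 0.04, and Cxcl1 and Cxcl3 0.05 and 0.01, which at these sparse counts is no finding. In vehicle monocyte-gated cells (n = 845) Cxcl2 and Cxcl3 had r of 0.30 and rho of 0.22, the highest value for that pair among the groups of cells examined. It rests on 23 cells with a Cxcl3 UMI, 14 of which also had Cxcl2, so it is no finding either. The points share a library and its free RNA.

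The genes whose counts followed Cxcl2 and Cxcl1 most closely over THP macrophage-gated cells were other inflammatory genes. Likeness was Pearson's r on log1p of UMIs per 10000 over 2936 cells, among genes with at least 10 CPM in 1 library. For Cxcl2 the 5 nearest were Cxcl1 (r = 0.33), Tnf (0.29), the chemokine Ccl3 (0.27), Nfkbia (0.24), which encodes the NF-kB inhibitor IkB-alpha, and the chemokine Ccl4 (0.24). In vehicle cells these r were 0.18, 0.15, 0.12, 0.20 and 0.14. For Cxcl1 they were Cxcl2 (0.33), Tnf (0.21), the monocyte chemokine Ccl2 (0.14), Nfkbia (0.14) and Ccl3 (0.14), and in vehicle cells 0.18, 0.12, 0.03, 0.12 and -0.0022. Cxcl3 had no near neighbour: its 5, Slc2a6, Serpinb2, Cxcl2, Ccdc88c and Il18rap, had r from 0.09 to 0.12. In the Cxcl2 bins above, Tnf was found in 30.04%, 40.8%, 58.4% and 80% of THP cells and Nfkbia in 60.4%, 71.4%, 81.2% and 84.4%.

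Other genes of the pathway were read over all cells by list, each beside the 0.911% of all genes tested that were at least 2-fold higher and the median log2 ratio of -0.18. The lists, like the members, were chosen with earlier results of these data known. Their counts are therefore a description, and nothing is read from them. The whole shift of the libraries moves with the scaling: under TMM scaling the median of all genes is 0.11, and list counts under it are given where they differ. Of the 9 genes of the CXCR2 ligands and receptors, 4 reached 10 CPM, namely Cxcl1, Cxcl2, Cxcl3 and Cxcr2. The ligand Cxcl5 was at 0.939 CPM (211 UMIs) against 0.173 CPM (36 UMIs), and Ppbp, the precursor of a platelet chemokine, at 8.22 against 6.38 CPM. Cxcl15, Cxcr1 and the decoy receptor Ackr1 had at most 24 UMIs in a library. Among the CXCR2 ligands listed, the 3 studied were the ones at 10 CPM or more.

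Of 8 other CXC chemokines, 4 reached 10 CPM and Cxcl11 was not analysed here. Of the 4 tested, 2 were at least 2-fold higher and none lower (median log2 ratio 1.09). Cxcl10, an interferon-induced ligand of Cxcr3 on T cells, was at 75.2 against 19.1 CPM (log2 ratio 1.92), and Cxcl16, a ligand of Cxcr6, at 199 against 81.9 CPM (1.27). Pf4, platelet factor 4, had 1425 against 755 CPM, a log2 ratio of 0.92 that passes 2-fold under TMM scaling (1.2), which makes 3 of 4 higher, and Cxcl14 had 203 against 183 CPM. In macrophage-gated cells the log2 ratios were 2.10 for Cxcl10, 0.79 for Cxcl16, 0.51 for Pf4 and -0.15 for Cxcl14. Cxcl16 thus did not pass 2-fold within that gate.

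Of 15 genes that induce these chemokines or carry the signal 12 were tested, and 4 were at least 2-fold higher, 1 lower and 7 neither (median 0.56). Tnf was at 117 against 18.9 CPM (log2 ratio 2.56) and Il1b at 67.3 against 9.58 CPM (2.69), both encoding cytokines that act through NF-kB. The receptors Tlr2 (1.52) and Cd14 (1.52), which bind bacterial lipids, were also higher. Tlr4 was lower at 10.99 against 24.1 CPM (-1.07), and -0.80 under TMM scaling, where it no longer passes 2-fold and Irak3 does (1.06), which makes 5 higher and 0 lower. Il17a had 0 UMIs in both libraries.

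NF-kB genes were higher in 7 of 11 tested and lower in none (median 1.30), and in 8 of 11 under TMM scaling. The 7 were Nfkbiz (1.94), Nfkbia (1.54), Nfkb2 (1.5), Bcl3 (1.46), Nfkbie (1.34), Relb (1.30) and Tnfaip3 (1.22). They include inhibitors of the pathway (Nfkbia, Nfkbie, Tnfaip3), which are themselves NF-kB targets, and subunits of its non-canonical arm (Nfkb2, Relb). Nfkb1, Rela and Rel had 0.56, 0.35 and 0.01. In macrophage-gated cells Nfkbiz, which encodes IkB-zeta, was at 66.2 against 12.7 CPM (2.29).

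Of 7 tested genes for mRNA decay and stability, 1 was higher and none lower (median -0.32). This was Zc3h12a, which encodes the RNase Regnase-1, at 18.6 against 8.26 CPM (log2 ratio 1.08). Zfp36, whose protein binds the ATTTA pentamers shown above, was at 72.0 against 48.7 CPM (0.55), and Zfp36l2 at 103 against 191 CPM (-0.89). Other neutrophil attractants and receptors were 2 higher and 7 neither of 9 tested (median -0.57), the 2 being the formyl peptide receptors Fpr1 (1.75) and Fpr2 (1.14). Under TMM scaling 3 of the 9 were higher, as C5ar1, the receptor of complement C5a, passed 2-fold (1.06). Csf3, the neutrophil growth factor G-CSF, was under 10 CPM at 253 UMIs with THP and 2 with vehicle. Immediate early and heat shock genes, which dissociation of cells can raise, were 0 higher and 1 lower of 8 tested (median -0.10). The 1 was Fosb (-1.18). Under TMM scaling 1 was higher, Junb (1.11), and 0 lower, with Fosb at -0.92. Fos had 92.9 against 92.8 CPM. The heat shock genes Hspa1b and Hspa1a were under 10 CPM and so not among those tested. Hspa1b had 724 UMIs with THP and 167 with vehicle (3.22 against 0.804 CPM). Hspa1a had 439 and 150 UMIs (1.95 against 0.722 CPM), so both were higher with THP.

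**Figure D5:**
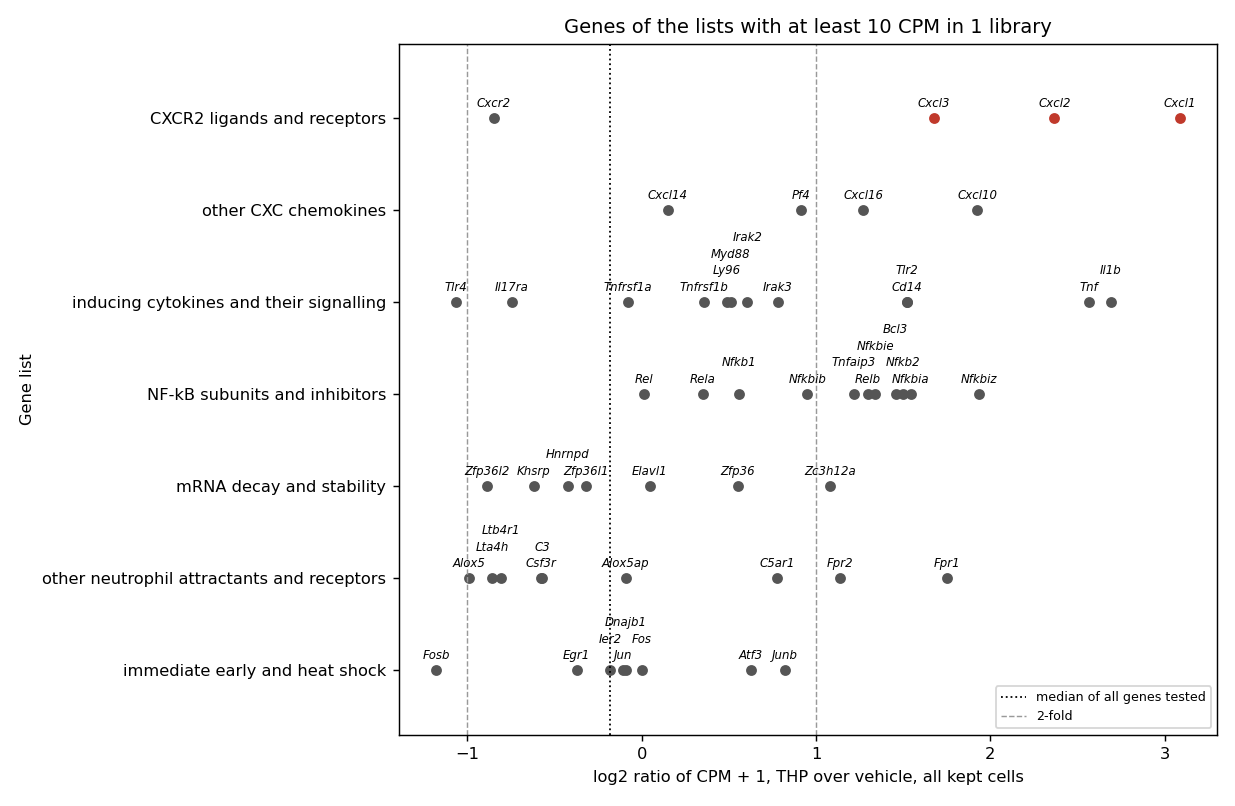
Log2 ratio of CPM + 1, THP over vehicle, over all kept cells for each listed gene with at least 10 CPM in 1 library, by list, with the 3 chemokines in red, a dotted line at the median of all genes tested and dashed lines at 2-fold. The 3 chemokines stand from 1.68 to 3.09, the NF-kB genes lie from 0.01 to 1.94 and the immediate early genes from -1.18 to 0.82.

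The rest of the gene cluster differed from member to member. Within 300 kb on each side of the 3 genes GENCODE M21 lists 15 protein-coding genes, of which 6 reached 10 CPM in a library. Cxcl15, which lies between Cxcl3 and Cxcl1, had 1 and 0 UMIs. Pf4, 12.7 kb from Cxcl3, had the log2 ratio of 0.92 given above. Mthfd2l, a mitochondrial folate enzyme gene 25.2 kb beyond Cxcl2, was at 14.1 against 13.3 CPM (0.08), and Afp was at 25.4 against 18.3 CPM (0.46). The growth factor genes Epgn, Ereg and Areg further on had at most 31 UMIs in a library. Of the 6 genes at 10 CPM or more in this stretch, those at least 2-fold higher were the 3 chemokines, against 0.911% of all 8012 genes tested. Nothing is read from this count, because the 3 were picked with the contrast known. Under TMM scaling Pf4 passes 2-fold as well (1.2).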

How the data were processed

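The 2 libraries hold droplet single-cell RNA, 1 per group. The authors deposited unnormalized UMI counts in matrices of genes by cell barcodes (software version 3.1.0, format version 2, per the file headers). The submitters' processing notes name Cell Ranger, STAR and bcl2fastq and the build mm10, and the sources used here do not give an annotation release. The members and the gene lists were chosen with earlier results of these data known. Cells with at least 500 genes, at least 1000 UMIs and at most 10% mitochondrial UMIs were kept, and no doublets or free RNA were removed. A cell was assigned where it passed exactly 1 gate, with classes for both neutrophil gates and for the macrophage and monocyte gates together, and other combinations were counted apart. CPM are summed UMIs over the summed total of the same cells, with exact Poisson intervals. Ratios have exact conditional binomial intervals, and shares of cells have exact Clopper-Pearson ones. The upper limit for a count of 0 is 3 counts of the total. Genes counted as higher or lower had at least 10 CPM in 1 library and at least a 2-fold ratio of CPM + 1. With 1 library per group no test across samples was possible. Named genes were the members, the 7 lists and, for each member, the 5 genes most alike over cells. Motifs, pentamers and transcript identity were computed from the RefSeq promoter table and GENCODE M21. The scripts were tested on simulated data. Tools were numpy 2.4.6, pandas 2.3.3, scipy 1.17.1, matplotlib 3.10.9, R 4.3.3 and edgeR 4.0.16, the last for scaling factors.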

Additional observations from a re-analysis of the deposited data

Results flagged for a closer look

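The barcodes left out by the cell filter, 1070 for THP and 606 for vehicle, are in no level, share or gate of the report and enter 1 alternative setting, all deposited barcodes. They had more Cxcl1 and Cxcl2 with THP than with vehicle. In the left-out THP barcodes Cxcl1 was at 35.6 CPM (28.3 to 44.2, 82 UMIs) and Cxcl2 at 944 CPM (905 to 985, 2176 UMIs). In the left-out vehicle barcodes they were at 5.59 CPM (2.42 to 11.02) and 130.1 CPM (112 to 150). Cxcl3, at 13.9 and 10.5 CPM, had overlapping intervals.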

How the results depend on the processing

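No paired analysis was possible because each group has 1 library, and for the same reason no replicate could be left out. No log2 ratio of Cxcl1, Cxcl2 or Cxcl3 changed sign under the alternatives run, whereas the balance of genes past the size rule turned with the scaling, and the median log2 ratio of all genes went from -0.18 to 0.11 with TMM and 0.10 with RLE factors. The log2 ratios over all cells of Cxcl1, Cxcl2 and Cxcl3 were 3.35, 2.65 and 1.92 with TMM factors and 3.34, 2.65 and 1.92 with RLE factors. Cxcl2 was at 2.72 with equal weight per cell, 2.41 without the top 5% of cells by UMIs and 2.27 without neutrophil-gated cells. With a pseudocount of 0.1 CPM Cxcl1 was at 3.28 and Cxcl3 at 1.87. In the macrophage gate Cxcl2 was at 2.17 with markers counted at 1 UMI. The ratios without barcodes held by both libraries were chosen after seeing the data.

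Shares of cells move with depth. Thinned to 2000 UMIs, Cxcl1, Cxcl2 and Cxcl3 were found in 6.30%, 40.2% and 1.66% of THP cells and 0.761%, 11.5% and 0.536% of vehicle cells, and without thinning in 22.7%, 65.8% and 7.49% against 4.87%, 30.7% and 2.57%. A share of cells with a UMI is therefore a value at its depth and not a share of expressing cells.

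The size rule gave 73 genes higher and 238 lower with THP, a higher share of 23.5%. With TMM factors 138 were higher and 69 lower, and with RLE factors 138 and 69, 66.7% in each case. At 1.5-fold 187 were higher and 1387 lower. Of the alternative values computed, 29 stayed within their limits and 30 moved.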
